A study of Mus musculus with 6 samples.

Results

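The enzymes described here are encoded by 10 genes. The set holds 6 genes of the kynurenine pathway of tryptophan breakdown (Tdo2, Afmid, Kmo, Kynu, Haao, Acmsd) and 4 of lysine breakdown (Aass, Aldh7a1, Dhtkd1, Gcdh). They were chosen by name, as steps of the routes that meet at 2-oxoadipate, out of 48432 genes in the deposited table. Earlier results of these data were known when they were chosen. All 10 passed the filter on low counts. The samples were livers of 10-week-old mice. The control group (Ctl, 3 libraries) carried Albumin-Cre, a transgene whose albumin promoter makes the recombinase Cre in hepatocytes. Li-KO (3 libraries) had Klf15 knocked out specifically in liver. Klf15 is a zinc finger transcription factor known for its part in hepatic amino acid breakdown. Klf15 was not measured by cell type. The sources used here do not name the removed exon, the sex of the mice, the feeding state or the hour of collection, nor do they say whether Li-KO mice carry the same transgene as Ctl. Separate mice are not stated for the libraries of a group. The p-values therefore cover only the spread between libraries, which may be technical. Library pairs within a group differed by far more than counting error. Their chi-square per gene, a measure of spread scaled to counting error, was 40.4 to 124. Whether this spread lies between mice was not tested.

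In the kynurenine pathway, tryptophan is opened to N-formylkynurenine, freed of its formyl group to give kynurenine, and then hydroxylated, cleaved and oxidised to an unstable semialdehyde. That semialdehyde either closes to quinolinate, the precursor of NAD, or is decarboxylated and burnt. Lysine is degraded in mitochondria through saccharopine and aminoadipate. Both routes reach 2-oxoadipate, which is decarboxylated to glutaryl-CoA and then to crotonyl-CoA. Liver is the main site of tryptophan breakdown in the body.

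Levels are given as CPM, counts relative to the TMM-scaled library total. Fold changes are Li-KO against Ctl from edgeR's quasi-likelihood test, and a gene was called changed at a Benjamini-Hochberg adjusted p under 0.05 over all 16533 genes tested. Where 3 values are given for a group, they are those of replicates 0, 1 and 2 in that order. The libraries held 30132496 to 42782324 counts. Klf15 itself lay at 174 to 345 CPM in Ctl, against 41.6 to 54.3 CPM in Li-KO (log2 fold change -2.28 ± 0.26 SE, adjusted p = 0.00275). Bulk RNA cannot tell fewer cells of a type from less RNA per cell, which applies to each level below.

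Of the 10 enzymes, 5 fell (Tdo2, Afmid, Aldh7a1, Dhtkd1, Gcdh), 1 rose (Kmo) and 4 did not pass the test (Kynu, Haao, Acmsd, Aass). Over all genes tested, 5.9% were called lower and 6.11% higher, 12% in all. An unadjusted p under 0.05 was reached by 7 of the 10 and by 29.4% of all genes tested. The median log2 fold change was -0.66 over the 10 and -0.01 over all genes tested. Of the 6 kynurenine enzymes, 2 fell and 1 rose, with a median of 0.20, and of the 4 lysine enzymes 3 fell, with a median of -1.0 and a negative fold change for each. No test of the difference between the branches was made.

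**Figure D1:**
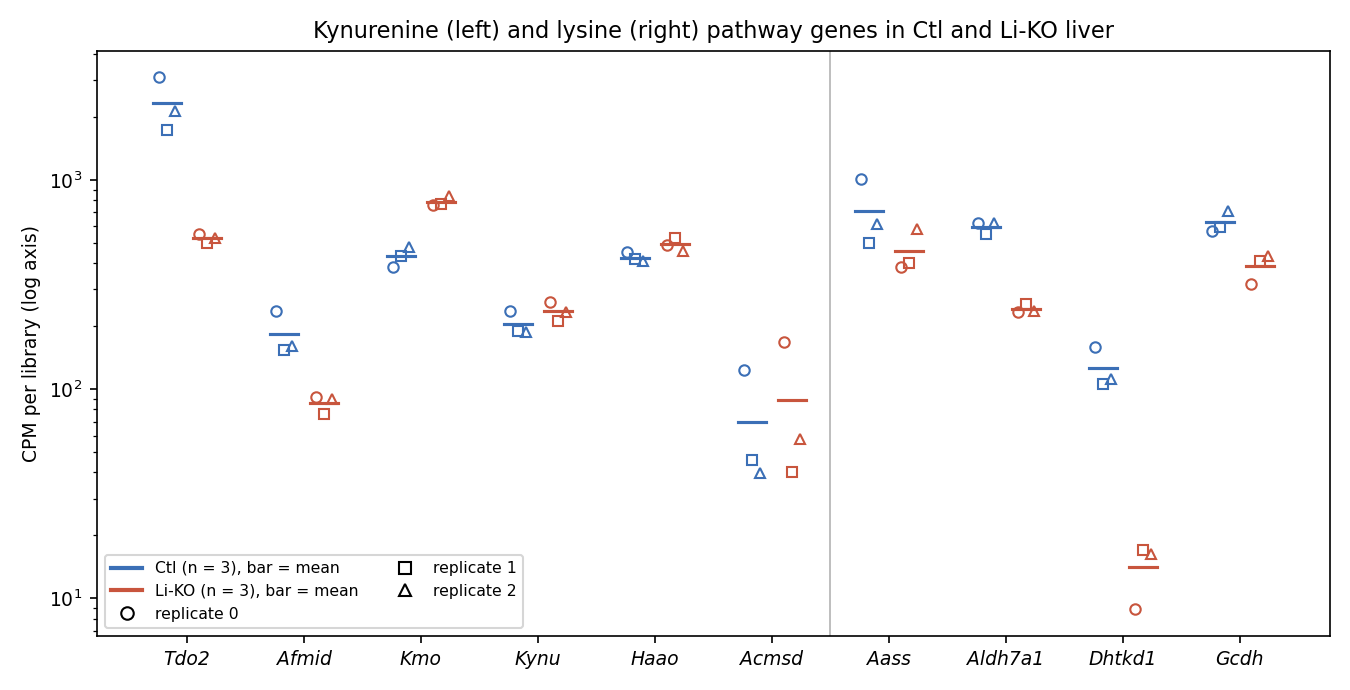
CPM of each enzyme gene in each library on a log axis, with Ctl in blue and Li-KO in red, symbols for the replicate numbers and a bar at the mean of 3 libraries. Tdo2, Afmid, Aldh7a1, Dhtkd1 and Gcdh lie lower in all 3 Li-KO libraries, Kmo lies higher, and the 2 groups of Acmsd are intermingled.

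Tdo2 (ENSMUSG00000028011.16, mm10 chromosome 3, 81957090 to 81976202, minus strand) encodes tryptophan dioxygenase, the heme enzyme that opens the indole ring and commits tryptophan to this route. Its level was 3095, 1735 and 2146 CPM (Ctl) against 553, 498 and 529 CPM (Li-KO). The groups did not overlap, and the Li-KO libraries lay much closer together than the Ctl libraries. Tdo2 fell 4.42-fold (log2 fold change -2.14 ± 0.22 SE, n = 3 per group, adjusted p = 0.00179). The difference was larger than the spread between replicates, with means of 2325 ± 697 and 526 ± 27.7 CPM (SD). The call held with any 1 of the 6 libraries left out, and the log2 fold change was -2.30 to -1.89.

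Afmid (ENSMUSG00000017718.15, chromosome 11, 117825924 to 117839908, plus strand) encodes kynurenine formamidase, which acts on the product of Tdo2. It had 237, 155 and 161 CPM (Ctl) against 91.4, 76.4 and 89.9 CPM (Li-KO). No Li-KO library reached the lowest Ctl library. Afmid fell 2.15-fold (log2 fold change -1.10 ± 0.18, adjusted p = 0.0103). Without Li-KO replicate 1 the adjusted p was 0.0549, with a log2 fold change of -1.03, and it was 0.0659 with limma on log2(FPKM + 1) of all genes above 0, FPKM being the authors' level per gene length. The gene Gm20708, on the same strand, shares 44.2% of the exonic length of Afmid, so fragments could be split between them. Gm20708, chosen after its values were seen, had 1.70 to 8.004 CPM (Ctl) against 1.86 to 3.80 CPM (Li-KO).

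The next enzyme moved the other way. Kmo (ENSMUSG00000039783.15, chromosome 1, 175620381 to 175662116, plus strand) encodes kynurenine 3-monooxygenase, a flavoprotein of the outer mitochondrial membrane that makes 3-hydroxykynurenine. Its level was 383, 432 and 479 CPM (Ctl) against 760, 770 and 834 CPM (Li-KO). Each Li-KO library was well above the highest Ctl library. Kmo rose 1.83-fold (log2 fold change 0.87 ± 0.14, adjusted p = 0.00918), and the call held without each library in turn (0.79 to 0.95). Kmo lies across from Fh1 on the opposite strand, and the 2 genes share 0 exonic bases.

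The enzymes after Kmo did not pass the test. Their genes are Kynu (ENSMUSG00000026866.16, chromosome 2, 43555329 to 43682715, plus strand), Haao (ENSMUSG00000000673.9, chromosome 17, 83831156 to 83847963, minus strand) and Acmsd (ENSMUSG00000026348.7, chromosome 1, 127729413 to 127767978, plus strand). Kynu, kynureninase, which splits off alanine, had 188 to 236 CPM (Ctl) against 212 to 261 CPM (Li-KO), and the groups overlapped (log2 fold change 0.20 ± 0.14, adjusted p = 0.390). Haao, the dioxygenase that opens the ring of 3-hydroxyanthranilate, had 451, 418 and 408 CPM (Ctl) against 490, 529 and 459 CPM (Li-KO). All 3 Li-KO libraries of Haao lay above all 3 Ctl libraries, by a margin too small to pass (log2 fold change 0.21 ± 0.12, adjusted p = 0.298). Among all genes tested, 17.4% had groups that did not overlap with Li-KO higher and 17.8% with Li-KO lower. Of the 10 enzymes, 2 and 5 were so placed.

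Acmsd encodes the decarboxylase that diverts the semialdehyde away from quinolinate and NAD. It varied more within a group than any of the other 9 enzymes, with 124, 45.9 and 39.8 CPM (Ctl) against 169, 40.3 and 58.1 CPM (Li-KO). One library of each group, replicate 0, was high, and the other 4 libraries spanned 39.8 to 58.1 CPM. The log2 fold change was 0.35 ± 0.58 (adjusted p = 0.733), and it was -0.49 without Li-KO replicate 0 and 1.05 without Ctl replicate 0. Its sign thus depended on single libraries.

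The lysine branch held the steepest fall of the 10 genes. Dhtkd1 (ENSMUSG00000025815.13, chromosome 2, 5896115 to 5942792, minus strand) encodes the first subunit of the 2-oxoadipate dehydrogenase complex, the step at which the tryptophan and lysine routes have joined. Its level was 159, 106 and 112 CPM (Ctl) against 8.89, 17.05 and 16.4 CPM (Li-KO). The highest Li-KO library was far below the lowest Ctl library. Dhtkd1 fell 8.91-fold (log2 fold change -3.16 ± 0.27, adjusted p = 0.000965). The call held without each library, with log2 fold changes of -3.31 to -2.89.

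Upstream of Dhtkd1, Aldh7a1 encodes antiquitin, the dehydrogenase that turns aminoadipate semialdehyde into aminoadipate. It had 626, 549 and 620 CPM (Ctl) against 235, 256 and 235 CPM (Li-KO). Both groups were tight and did not overlap. Aldh7a1 fell 2.47-fold (log2 fold change -1.30 ± 0.12, adjusted p = 0.00117), and it fell in each fit without a library (-1.35 to -1.26). The neighbouring gene Phax, on the opposite strand, covers 5.79% of its exonic length, and the sources used here do not give the strand setting of the authors' counting.

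Gcdh (ENSMUSG00000003809.14, chromosome 8, 84886393 to 84893921, minus strand), glutaryl-CoA dehydrogenase, acts just after Dhtkd1. It had 568, 598 and 715 CPM (Ctl) against 318, 410 and 434 CPM (Li-KO), again without overlap. Gcdh fell 1.62-fold (log2 fold change -0.69 ± 0.16, adjusted p = 0.0321). This call was near the threshold and was kept in 2 of the 6 fits with a library left out. The adjusted p was 0.0978 without Ctl replicate 1, 0.106 without Ctl replicate 2, 0.0685 without Li-KO replicate 0 and 0.102 without Li-KO replicate 1. Calls over all genes fell from 1986 to 432, 642, 1229 and 476 in these fits, in the same order. The log2 fold change of Gcdh stayed between -0.79 and -0.55. With limma on log2(FPKM + 1) the adjusted p of Gcdh was 0.0513, and 0.0746 over all genes above 0.

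Aass (ENSMUSG00000029695.13, chromosome 6, 23072173 to 23132986, minus strand) encodes the bifunctional aminoadipate semialdehyde synthase, which starts lysine breakdown by making and then splitting saccharopine. It had 1013, 499 and 613 CPM (Ctl) against 384, 400 and 583 CPM (Li-KO). Li-KO replicate 2 lay within the range of Ctl. Aass did not pass (log2 fold change -0.64 ± 0.28, unadjusted p = 0.0487, adjusted p = 0.167), and without Ctl replicate 0 its log2 fold change was -0.29 (adjusted p = 0.445).

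The stretches just upstream of 3 lysine genes are shown because the genes sit in one route and their values differed, with Dhtkd1 8.91-fold lower, Gcdh 1.62-fold lower and Aass not past the test. They are the 250 bases before the RefSeq transcription start (GRCm38.p6), 5′ to 3′ on the strand of the gene. Capitals mark the box known to be bound by Kruppel-like factors, searched on both strands as CACCC. They also mark a GC box, searched on both strands as CCCGCCC. The same boxes read as GGGTG when the first lies on the opposite strand, and as GGGCGGG for the second. The letters of the 2 boxes do not overlap in these windows.
Dhtkd1, chr2:5942793-5943042, minus strand: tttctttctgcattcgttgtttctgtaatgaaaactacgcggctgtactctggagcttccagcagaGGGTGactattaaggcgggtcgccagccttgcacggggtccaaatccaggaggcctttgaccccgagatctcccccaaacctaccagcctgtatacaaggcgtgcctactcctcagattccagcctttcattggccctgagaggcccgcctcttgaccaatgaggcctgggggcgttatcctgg
Gcdh, chr8:84893922-84894171, minus strand: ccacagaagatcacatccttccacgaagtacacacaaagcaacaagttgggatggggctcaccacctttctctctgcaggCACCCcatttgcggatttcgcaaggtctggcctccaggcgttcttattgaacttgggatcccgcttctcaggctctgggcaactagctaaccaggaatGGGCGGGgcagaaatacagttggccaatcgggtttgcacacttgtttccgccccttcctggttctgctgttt
Aass, chr6:23132987-23133236, minus strand: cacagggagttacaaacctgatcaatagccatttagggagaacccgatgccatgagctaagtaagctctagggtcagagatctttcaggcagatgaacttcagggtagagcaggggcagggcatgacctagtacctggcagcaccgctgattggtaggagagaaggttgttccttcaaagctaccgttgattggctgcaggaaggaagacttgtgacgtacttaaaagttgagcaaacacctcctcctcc
Dhtkd1 had 1 CACCC match, Gcdh had 1 CACCC and 1 CCCGCCC match, and Aass had 0 of either. RefSeq gave a promoter for 8 of the 10 genes. In the same window, Afmid had 3 CACCC matches and 1 CCCGCCC match, Tdo2 had 2 CACCC matches, and Kmo, Haao and Acmsd had 0 of either. The windows of Tdo2, Haao and Kmo lie inside the GENCODE models of those genes, whose outermost annotated starts are further upstream. In the window of Afmid, 205 of the 250 bases lie in exons of another gene, Tk1. CACCC is common. Of 32851 promoters, 52% held it and 23.4% held CCCGCCC, so these matches describe the letters only.

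**Figure D2:**
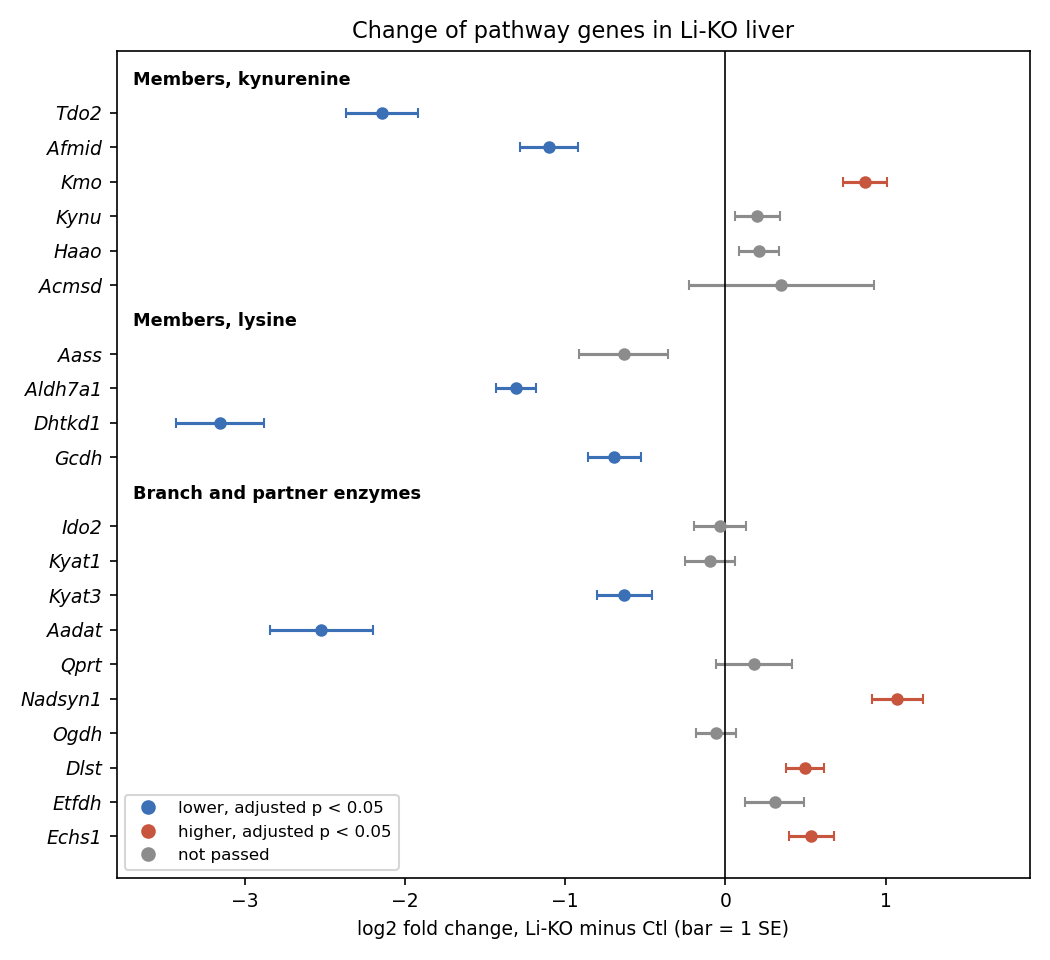
Log2 fold change (Li-KO minus Ctl) with 1 SE for the 10 enzyme genes and for named branch and partner enzymes, coloured by whether the adjusted p was under 0.05. Dhtkd1 at -3.16, Aadat at -2.52 and Tdo2 at -2.14 are the furthest left, while Nadsyn1 at 1.07 and Kmo at 0.87 are the furthest right.

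Enzymes that share substrates with the 10 were read from 2 further lists. Of 15 other genes of tryptophan, kynurenine and NAD metabolism, 13 were tested, 2 fell (Aadat, Kyat3), 1 rose (Nadsyn1) and 10 did not pass, with a median log2 fold change of -0.03. Aadat, an aminotransferase of both kynurenine and aminoadipate, makes kynurenate in one route and 2-oxoadipate in the other. It had 106, 129 and 164 CPM (Ctl) against 35.7, 18.3 and 15.4 CPM (Li-KO). The groups were far apart, and Aadat fell 5.74-fold (log2 fold change -2.52 ± 0.32, adjusted p = 0.00414), with the call held in each fit without a library.

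Of the other kynurenine aminotransferases, Kyat3 fell from 277 ± 30.5 to 179 ± 36.8 CPM (SD, n = 3 each). Its adjusted p was 0.0476, close to the threshold, and it was 0.0502 with the RLE size factors and 0.0599 to 0.0899 in 3 limma fits on FPKM. With 1 library left out, the Kyat3 call ended in 5 of 6 fits. The adjusted p was 0.0888, 0.106 and 0.148 without Ctl replicates 0, 1 and 2, and 0.0956 and 0.145 without Li-KO replicates 0 and 1. Kyat1 had 163 to 179 CPM (Ctl) against 132 to 196 CPM (Li-KO), with an adjusted p of 0.724. Within each library the ratio of Aadat to Kyat3, in FPKM (the authors' level per length, which allows genes to be compared), was 0.412, 0.50 and 0.496 (Ctl) against 0.253, 0.110 and 0.0752 (Li-KO). The ratio was lower in each Li-KO library.

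Ido1 and Ido2 encode the other enzymes able to start tryptophan breakdown. Ido1, the inducible indoleamine dioxygenase, had 0 counts in all 6 libraries, which allows up to 0.0996 CPM in the smallest library (3 counts, counting error only). Ido2 had 79.9, 75.2 and 56.5 CPM (Ctl) against 73.2, 59.2 and 74.3 CPM (Li-KO), with interleaved groups and an adjusted p of 0.916. In FPKM, the ratio of Tdo2 to Ido2 was 32.7, 19.7 and 28.8 (Ctl) against 8.85, 9.37 and 6.62 (Li-KO).

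On the way to NAD, Qprt, which consumes quinolinate, had 140 to 188 CPM (Ctl) against 126 to 249 CPM (Li-KO) and did not pass (adjusted p = 0.659). Nadsyn1, the synthetase of the last step, had 31.01, 25.5 and 28.8 CPM (Ctl) against 67.8, 64.1 and 47.7 CPM (Li-KO). Every Li-KO library was above every Ctl library, and Nadsyn1 rose 2.10-fold (log2 fold change 1.07 ± 0.16, adjusted p = 0.00762), in each fit without a library as well.

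Of 16 other genes around lysine, 2-oxoadipate and glutaryl-CoA, all were tested, 1 fell (Aadat, counted in both lists), 2 rose (Dlst, Echs1) and 13 did not pass, with a median of 0.01. Hykk, hydroxylysine kinase, was called lower by DESeq2 and limma-voom, but not by edgeR (adjusted p = 0.0509), and is named after its values were seen. Ogdh, the counterpart of Dhtkd1 in the 2-oxoglutarate dehydrogenase complex, had 435, 397 and 381 CPM (Ctl) against 399, 356.5 and 410 CPM (Li-KO), and did not pass (log2 fold change -0.06 ± 0.12, adjusted p = 0.798). The FPKM ratio of Dhtkd1 to Ogdh was 0.315, 0.229 and 0.252 (Ctl) against 0.0185, 0.0461 and 0.0358 (Li-KO). Each Li-KO ratio was below each Ctl ratio.

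Dlst, the second subunit that both complexes use, rose from 251 ± 17.1 to 355 ± 17.7 CPM (adjusted p = 0.0325, with a log2 fold change of 0.50 ± 0.12). Echs1, which hydrates crotonyl-CoA downstream of Gcdh, rose from 186 ± 26.8 to 269.9 ± 20.7 CPM (adjusted p = 0.0435). Both calls ended in the 3 limma fits on FPKM (adjusted p 0.0542 to 0.0653 for Dlst and 0.0821 to 0.110 for Echs1) and in 5 of the 6 fits with a library left out. Dlst kept its call only without Li-KO replicate 2 (highest adjusted p 0.130 otherwise), and Echs1 only without Ctl replicate 0 (highest adjusted p 0.157 otherwise). Etfdh, which passes electrons from Gcdh to the respiratory chain, had 251 ± 59.4 and 311 ± 37.0 CPM and did not pass (adjusted p = 0.304).

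Carriers of tryptophan, kynurenine and lysine were a further list, with 10 genes tested, 2 lower, 0 higher and a median of -0.35. Of these 10, 8 had a negative and 2 a positive log2 fold change. Their summed level was 1234 to 2990 CPM (Ctl) against 1986 to 3404 CPM (Li-KO). Much of that sum was Slc7a2, named after its values were seen. It had 2693, 909 and 1082 CPM (Ctl) against 3183, 2073 and 1781 CPM (Li-KO). Slc7a2 did not pass (log2 fold change 0.59 ± 0.41, adjusted p = 0.381) but was called higher without Ctl replicate 0. By edgeR 4 of the 10 had an unadjusted p under 0.05, and both DESeq2 and limma-voom gave 2 lower and 0 higher too. Slc16a10, a transporter of aromatic amino acids, fell from 217 ± 16.2 to 140.5 ± 18.9 CPM (adjusted p = 0.0244, with a log2 fold change of -0.63 ± 0.13). Its call ended without Ctl replicate 1 (adjusted p = 0.109), Ctl replicate 2 (0.0651) and Li-KO replicate 1 (0.102). Slc36a4, a tryptophan and proline carrier, fell from 20.6 ± 2.36 to 11.1 ± 1.10 CPM (adjusted p = 0.0111, with a log2 fold change of -0.90 ± 0.15), and its adjusted p was 0.0539 both without Li-KO replicate 1 and with limma on log2(FPKM + 1), and 0.0956 with limma on all genes above 0.

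Kynurenine and kynurenate are known ligands of the aryl hydrocarbon receptor, Ahr, and Tdo2 is a classic glucocorticoid-induced gene, so both sets of targets were read. Of 7 tested genes of Ahr and its targets, 1 fell and 0 rose, with a median of -0.27. The one that fell was Nqo1, a quinone reductase that other pathways also induce, from 7.38 ± 3.08 to 3.0 ± 0.493 CPM (adjusted p = 0.0413). The Nqo1 call ended without Ctl replicates 0 and 1 and Li-KO replicates 0 and 1 (adjusted p = 0.107, 0.136, 0.0944 and 0.122), and limma-voom gave 0 calls in the list (Nqo1 adjusted p = 0.0716). Of 10 genes of the glucocorticoid receptor and its targets, edgeR called 0, with 2 at an unadjusted p under 0.05, limma-voom called 0, and DESeq2 called 1 lower (Per1) and 1 higher (Sgk1). Libraries of a group differed widely, with a summed level of 7937, 2585 and 3664 CPM (Ctl) against 6276, 3595 and 6083 CPM (Li-KO). Much of that sum was Tat, tyrosine aminotransferase, named after its values were seen. Tat had 6477, 1815 and 2643 CPM (Ctl) against 5390, 2761 and 4591 CPM (Li-KO). The 0 edgeR calls therefore do not show equal levels. Sgk1, a kinase with the smallest p of that list, had 42.4, 23.5 and 32.9 CPM (Ctl) against 188, 36.7 and 104 CPM (Li-KO) (edgeR adjusted p = 0.0554).

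**Figure D3:**
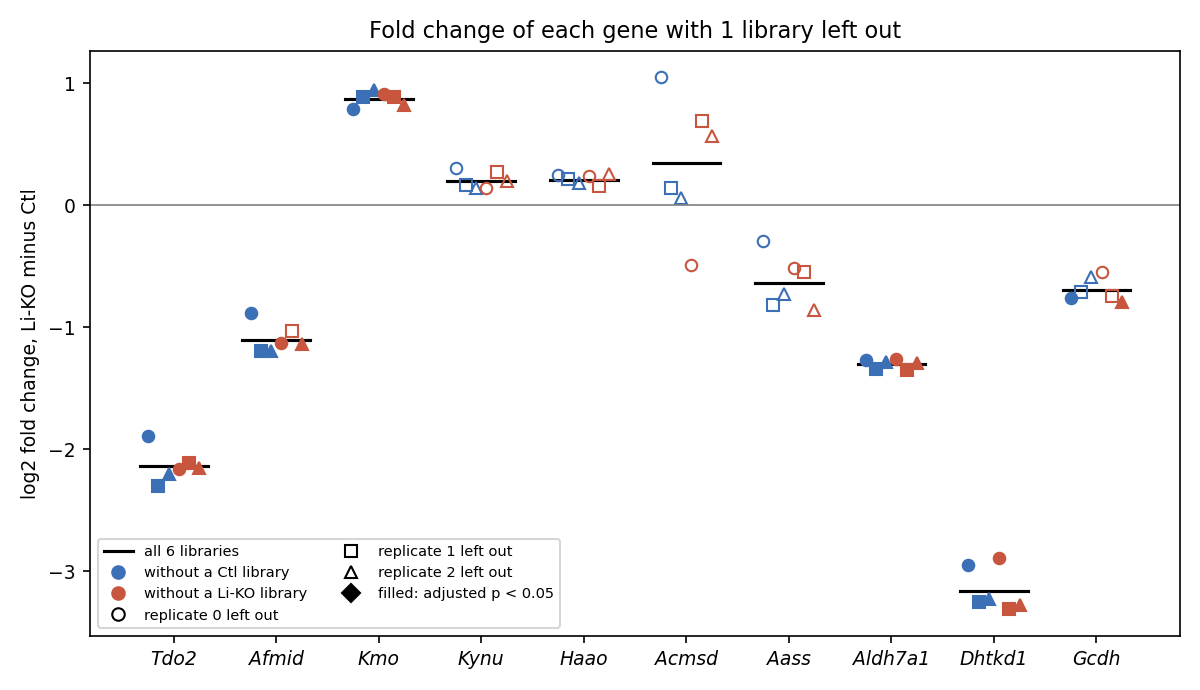
Log2 fold change (Li-KO minus Ctl) of each enzyme gene with all 6 libraries (black line) and with 1 library left out (points, coloured by the group and shaped by the replicate left out, filled where the adjusted p was under 0.05). Dhtkd1, Tdo2, Aldh7a1 and Kmo kept their calls in all 6 fits, Gcdh kept it in 2, and Acmsd ran from -0.49 to 1.05.

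Ctl replicate 0 stood apart from the other Ctl libraries in this set. It was the highest Ctl library for 8 of the 10 enzymes, and the lowest for Kmo and Gcdh. For Aldh7a1 the margin was small, at 626 against 620 CPM in Ctl replicate 2. The share of all genes highest in that library was not counted. Klf15 was highest there too, at 345 against 174 and 196 CPM in Ctl replicates 1 and 2. The same library was high for other genes of amino acid breakdown and gluconeogenesis, chosen after their values were seen. Tat had 6477 CPM there against 1815 and 2643 CPM in Ctl replicates 1 and 2, and 2761 to 5390 CPM in Li-KO. Sds, serine dehydratase, had 733 against 116 and 146 CPM, with 592 to 834 CPM in Li-KO. Pck1, of gluconeogenesis, had 6436 against 1840 and 2963 CPM, with 3572 to 5582 CPM in Li-KO. Tat is the gene of the glucocorticoid list above, and Sds and Pck1 are in the periportal list below. The labels give no batch, and the part of this spread in the results was not tested. Without Ctl replicate 0, the log2 fold changes were -1.89 for Tdo2, -0.88 for Afmid, 0.79 for Kmo, -2.95 for Dhtkd1 and -1.27 for Aldh7a1, all still past the test.

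**Figure D4:**
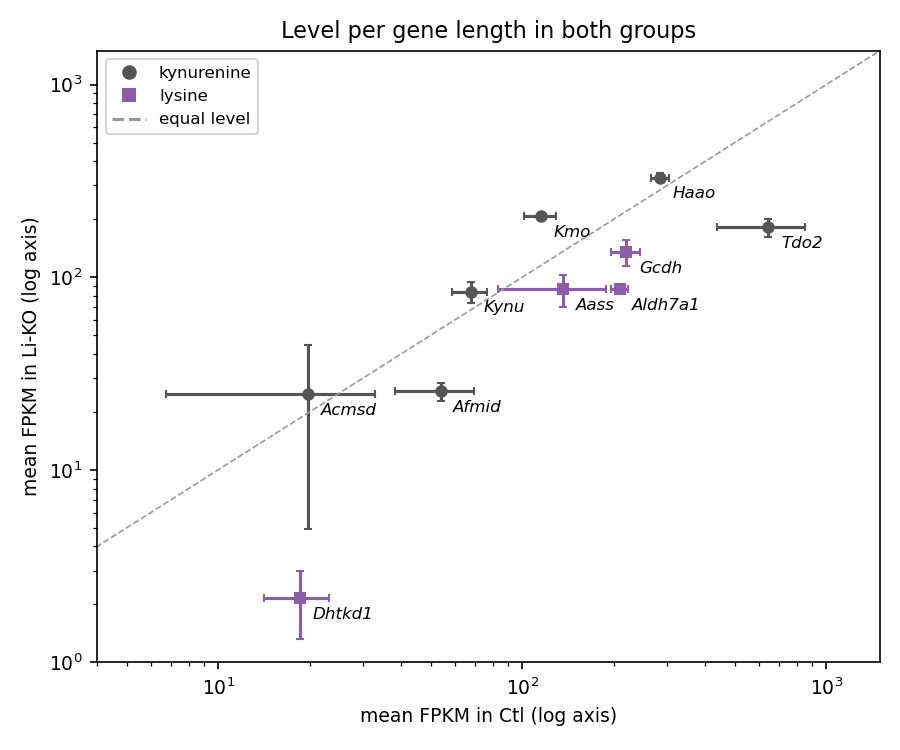
Mean FPKM of each enzyme gene in Li-KO against Ctl, both on log axes, with SD over 3 libraries and a dashed line of equal level. Tdo2 lies highest in Ctl at 646, Haao highest in Li-KO at 329, and Dhtkd1 is lowest in both at 18.6 and 2.15.

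Levels per gene length, in FPKM, changed order between the groups. In Ctl the order was Tdo2 (646 ± 209 SD, n = 3), Haao (284 ± 19.3), Gcdh (220.0 ± 24.2), Aldh7a1 (209 ± 14.0), Aass (136 ± 52.7), Kmo (115 ± 13.8), Kynu (67.8 ± 8.95), Afmid (53.9 ± 15.7), Acmsd (19.8 ± 13.1) and Dhtkd1 (18.6 ± 4.46). The libraries of Gcdh and Aldh7a1, Aldh7a1 and Aass, Aass and Kmo, Kynu and Afmid, and Acmsd and Dhtkd1 overlapped, so these neighbours are not separated. In Li-KO, Haao came first (329 ± 18.0), then Kmo (208 ± 3.83) and Tdo2 (182 ± 19.8). Gcdh (135 ± 20.9), Aldh7a1 (87.1 ± 5.20), Aass (86.5 ± 16.2), Kynu (84.3 ± 10.5), Afmid (25.5 ± 2.66), Acmsd (24.8 ± 19.9) and Dhtkd1 (2.15 ± 0.824) followed. There the libraries of Aldh7a1 and Aass, Aass and Kynu, and Afmid and Acmsd overlapped. Within libraries, the FPKM ratio of Tdo2 to Kmo was 8.73, 4.30 and 4.33 (Ctl) against 0.996, 0.851 and 0.777 (Li-KO). Tdo2 thus exceeded Kmo in all 3 Ctl libraries and lay under it in Li-KO replicates 1 and 2. In Li-KO replicate 0 they were nearly equal, at 202.9 FPKM for Tdo2 and 203.6 FPKM for Kmo. The fall of Tdo2 was smaller in FPKM than in counts, with log2 fold changes of -1.79 (limma on log2(FPKM + 0.1)) and -2.14 (edgeR). The FPKM ratios with Tdo2 carry that difference, whose cause was not tested. The ratio of Tdo2 to Kynu was 11.3, 7.84 and 8.98 (Ctl) against 2.11, 2.23 and 2.14 (Li-KO), with little spread among the Li-KO libraries. The ratio of Aass to Dhtkd1, the first enzyme of lysine breakdown and the one at 2-oxoadipate, was 8.24, 6.21 and 6.96 (Ctl) against 62.9, 28.8 and 41.8 (Li-KO).

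Markers of hepatocytes and of other cells were read beside these results. Of 7 tested hepatocyte markers, edgeR called 0, with 1 at an unadjusted p under 0.05, and DESeq2 called 1 (Ttr, higher), while their summed level was 20498 to 25419 CPM (Ctl) against 22469 to 24747 CPM (Li-KO). Kupffer cells and other macrophages can also express Kmo and Kynu. Of 8 Kupffer cell and macrophage markers, 0 were called by edgeR, DESeq2 or limma-voom (1, 2 and 0 at an unadjusted p under 0.05), with sums of 277 to 397 CPM (Ctl) against 259.7 to 369 CPM (Li-KO). Kidney also expresses many of these enzymes. Of 6 kidney markers, 4 had 0 counts in every library and the sum was at most 0.0269 CPM.

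For other cell types, none of 6 sinusoidal endothelial, 6 stellate and 3 tested lymphocyte markers was called by edgeR, DESeq2 or limma-voom, with 0, 2 and 0 at an unadjusted p under 0.05 by edgeR. These 2 stellate markers went opposite ways and are named after their values were seen. Col3a1 had 40.3, 53.6 and 63.9 CPM (Ctl) against 237, 91.8 and 46.7 CPM (Li-KO), with a log2 fold change of 1.25 ± 0.50 (adjusted p = 0.137). Dcn had 217, 200 and 206 CPM (Ctl) against 143, 148 and 189 CPM (Li-KO), with -0.37 ± 0.14 (adjusted p = 0.109). Without Li-KO replicate 2, edgeR called both. Of the 6 stellate markers, 3 had positive and 3 negative log2 fold changes. Of 5 bile duct markers 1 fell, Sox9, from 14.7 ± 2.64 to 2.82 ± 0.646 CPM (adjusted p = 0.00153), and the other 4 had positive log2 fold changes that did not pass, so the median of the list was 0.77. By edgeR 3 of the 5 had an unadjusted p under 0.05. Spp1 had 18.9, 31.9 and 42.8 CPM (Ctl) against 144, 56.8 and 40.4 CPM (Li-KO), with a log2 fold change of 1.36 ± 0.47 (adjusted p = 0.0920). Epcam, whose groups did not overlap, had a log2 fold change of 0.96 ± 0.32 (adjusted p = 0.0850), Krt19 of 0.77 ± 0.42 and Krt7 of 0.17 ± 0.48. These 4 are named after their values were seen. The summed level of the 5 was 33.2, 50.03 and 63.5 CPM (Ctl) against 151, 65.03 and 47.4 CPM (Li-KO), highest in Li-KO replicate 0. Zonal hepatocyte genes were read too. Of 7 tested pericentral genes 1 rose, Oat, from 813 ± 122 to 1555 ± 444.5 CPM (adjusted p = 0.0343). DESeq2 called 3 of the 7, with Oat and Rhbg higher and Lgr5 lower, and limma-voom called 2, Oat and Rhbg. The edgeR adjusted p was 0.0669 for Rhbg (log2 fold change 1.06 ± 0.32) and 0.101 for Lgr5 (-1.26 ± 0.45). Of 8 periportal genes 1 fell, Gls2, from 523 ± 170.1 to 223 ± 78.4 CPM (adjusted p = 0.0325), and 1 rose, Cdh1, from 98.9 ± 5.44 to 154 ± 35.6 CPM (adjusted p = 0.0415). Limma-voom called the same 2, and DESeq2 also called Cyp2f2 higher (edgeR adjusted p = 0.104). The median log2 fold change was 0.40 for periportal genes (6 positive, 2 negative) and -0.27 for pericentral genes (3 positive, 4 negative). Periportal sums were 13043, 6231 and 8266 CPM (Ctl) against 13006, 9926 and 12410 CPM (Li-KO). Pericentral sums were 2673, 3941 and 3581 CPM (Ctl) against 2932, 4343 and 3703 CPM (Li-KO). Rhbg, Lgr5 and Cyp2f2 were likewise chosen after their values were seen. The calls of Oat, Gls2 and Cdh1 ended in 4, 5 and 5 of the 6 fits that dropped a library (highest adjusted p 0.126, 0.119 and 0.129). The part of these markers in the results was not tested.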

How the data were processed

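Total RNA of 6 mouse liver samples was sequenced after a stranded total RNA library preparation, per the labels' protocols. The authors aligned reads with STAR to mm10 and ran Cufflinks and Cuffdiff, per the submitters' processing notes. Their versions, options and gene models were not given in the sources used here, nor was the strand setting. The authors' deposited table gives estimated counts (3.29% not whole numbers) and FPKM values, scaled by the authors to gene length and library depth, per the file headers. Its conditions are named WT and KO, which the sample titles do not use. WT was taken as Ctl, the only group without the knockout, and KO as Li-KO, with equal replicate numbers, so this match is an assumption. The 77 genes that Cuffdiff skipped in some library (status HIDATA, listed at 0) were left out of tests and totals, Serpina1c and Cyp2e1 of the marker lists among them. The hepatocyte marker written as Tf matched no symbol.

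Gene IDs were matched to symbols (48051 of 48432). Positions came from GENCODE M21 (mm10) and promoters from RefSeq (GRCm38.p6). Counts were rounded, filtered with filterByExpr (minimum count 10, minimum total 15), scaled by TMM and tested with edgeR 4.0.16 (two-sided quasi-likelihood, group as the only term, Benjamini-Hochberg over 16533 genes). The SE is the size of the log2 fold change over the square root of F. The script was tested on simulated data. Totals were 42433779, 35454667 and 38502121 counts for Ctl replicates 0, 1 and 2, against 30132496, 31225418 and 42782324 for Li-KO.

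Alternatives were RLE size factors, no filter, DESeq2 1.42.0, limma-voom (limma 3.58.1), limma on log2(FPKM + 1) and log2(FPKM + 0.1) with a mean FPKM of at least 0.1 or above 0, a replicate block, and each library left out. Genes named were the 10 members, Klf15, called genes of 5 pathway lists (the smallest p where none was called), 9 branch enzymes and called cell markers. Members and lists were chosen with earlier results of these data known. Tools were R 4.3.3 and Python 3.11.15, with matplotlib 3.10.9 for figures and pandas 2.3.3 with numpy 2.4.6 for tables.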

Additional observations from a re-analysis of the deposited data

How the results depend on the processing

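Among the 10 enzymes, Tdo2, Kmo, Aldh7a1 and Dhtkd1 kept their call and direction under all 14 alternatives, with log2 fold changes of -2.30 to -1.78, 0.79 to 0.95, -1.35 to -1.25 and -3.31 to -2.66. Afmid kept its call in 12 (adjusted p up to 0.0659) and Gcdh in 8 (up to 0.106), while Kynu, Haao, Acmsd and Aass were called in 0. The count of enzymes called lower was 5, and it was 3 with limma on log2(FPKM + 1) of all genes above 0 and 3 to 5 in fits without a library, lowest without Li-KO replicate 1. The 1 higher call, Kmo, held throughout.

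All genes called were 1986, against 3013 with DESeq2, 1271 with limma on log2(FPKM + 0.1), 1172 on log2(FPKM + 1), 808 on all genes above 0, and 432 to 2549 without a library. The lysine partner list (3 calls) gave 1 with each of these 3 limma fits and 1 to 3 without a library. The carrier list (2 calls) gave 1 with limma on log2(FPKM + 1) under either filter and 0 to 3 without a library. The Ahr list (1 call) gave 0 with the 3 limma fits on FPKM, 0 with limma-voom, 0 with the replicate block and 0 to 1 without a library. The glucocorticoid list (0 calls) gave 2 with DESeq2, 1 without the filter, 1 with the replicate block and 0 to 1 without a library. The cause of these differences was not tested, except that leaving out a library leaves fewer samples.

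Signs changed only for genes that passed in neither fit. Acmsd (0.35) ran from -0.49 without Li-KO replicate 0 to 1.05 without Ctl replicate 0, and Qprt (0.18) from -0.09 without Li-KO replicate 0 to 0.38 without Li-KO replicate 2. Ido2 (-0.03) ran from -0.17 without Ctl replicate 2 to 0.06, its value with either Ctl replicate 0 or Li-KO replicate 1 left out, and was 0.03 without Ctl replicate 1. Kyat1 (-0.10) ran from -0.25 without Li-KO replicate 0 to 0.02 without Li-KO replicate 2.

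With the replicate number as a block, 1971 genes were called, and 5 enzymes lower and 1 higher. The block ended the calls of Echs1, Nqo1 and Cdh1 (adjusted p = 0.0599, 0.0703 and 0.0549) and made one for Sgk1 (0.0197). Deviations from the group means correlated at 0.02, 0.08 and 0.07 between libraries of equal number, for numbers 0, 1 and 2. Libraries of unequal number correlated at -0.11 to 0.04. With 3 libraries per group, these few values cannot settle whether equal numbers mark pairs.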
